A study of Homo sapiens with 32 samples.

Results

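The guanylate-binding proteins GBP1 to GBP6 were followed through 16 groups of cultured human cells. The members were the 6 rows of the deposited count table whose gene symbol is GBP1, GBP2, GBP3, GBP4, GBP5 or GBP6, of 60332 genes in all. Each symbol has 1 row. All 6 passed the filter on low counts in each of the 3 experiments. They lie side by side on chromosome 1 of the hg19 build: GBP3 (ENSG00000117226) from 89472349 to 89488577, GBP1 (ENSG00000117228) from 89518002 to 89531043, GBP2 (ENSG00000162645) from 89571815 to 89641723, GBP4 (ENSG00000162654) from 89646831 to 89672723, GBP5 (ENSG00000154451) from 89724633 to 89738487, and GBP6 (ENSG00000183347) from 89829617 to 89852020. The deposited interval of GBP2 is that of 2 genes, because GBP7 shares it; GBP7 itself had at most 4 counts in a library.

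Guanylate-binding proteins are large GTPases of the dynamin superfamily. Interferon-gamma induces them most strongly, in part through the transcription factor IRF1, and type I and type III interferons induce them through STAT2 and IRF9 among others. GBP1, GBP2 and GBP5 end in a motif for a lipid anchor and can be tethered to membranes. GBP1 coats cytosolic Gram-negative bacteria and recruits GBP2, GBP3 and GBP4, which helps caspase-4 to sense bacterial lipopolysaccharide. GBP2 and GBP5 lower the activity of the protease furin, and GBP5 has also been linked to the NLRP3 inflammasome. Less is known of GBP6.

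The sequences upstream of the genes show what the members share besides their neighbourhood, so they were searched for the binding motifs of the interferon-driven factors. RefSeq promoter entries (GRCh38.p14) were present for GBP1, GBP3, GBP4 and GBP6, and not for GBP2 or GBP5. The search covered the 250 bases before each start, on both strands, for GAAA, any 2 bases and GAAA, the core of the interferon-stimulated response element (ISRE) bound by complexes of STAT2 and IRF9 and by IRF1, and for TTCNNNGAA, the interferon-gamma activated site (GAS) motif, which is its own reverse complement. The windows of 3 members are shown 5′ to 3′ on the gene's strand, all on the minus strand, with motif matches in capitals.
GBP1, chr1:89065286-89065375: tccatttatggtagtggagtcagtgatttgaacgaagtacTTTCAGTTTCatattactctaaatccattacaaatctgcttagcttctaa
GBP3, chr1:89022867-89022921: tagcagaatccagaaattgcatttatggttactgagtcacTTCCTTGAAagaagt
GBP4, chr1:89198943-89199042: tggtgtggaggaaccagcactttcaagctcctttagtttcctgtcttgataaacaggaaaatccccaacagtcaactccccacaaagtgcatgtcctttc
The ISRE match of GBP1 begins 127 bases before the start, and its window held no GAS match. The GAS match of GBP3 begins 15 bases before the start, and its window held no ISRE match. GBP4 and GBP6 held neither set of letters within 250 bases. Among 35116 promoter entries of the same length, 3.02% held the ISRE letters and 6.57% the GAS letters. A match is a description of the sequence and not a bound site.

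The samples were 32 polyadenylated RNA libraries, 2 per group, in 3 experiments. MCF10A is a non-transformed breast epithelial line and hTERT RPE-1 a retinal pigment epithelial line immortalised with telomerase; every irradiated culture received 10 Gy. The first experiment held MCF10A wild type (WT) untreated, WT with DMSO at 3 and 5 days after irradiation, WT with a CDK1 inhibitor (CDK1i) at 5 days, and cGAS, STING and XRCC4 knockouts (KO) at 5 days. The second held MCF10A at 3 days, namely WT, p53 KO, XRCC4 KO and a line lacking both XRCC4 and p53 (DKO); the last 2 lines were also irradiated with an inhibitor of ATR (ATRi). In the RPE-1 experiment every group received ATRi and was collected at 3 days, and the labels read WT, WT cGAS and p53 KO. The series text asks whether cell cycle arrest or loss of cGAS or STING weakens inflammatory signalling after irradiation in MCF10A, whether loss of p53 and of the G2-M checkpoint restores it without XRCC4, and whether these act without cGAS in RPE-1. cGAS senses cytosolic DNA and STING relays its signal. XRCC4 belongs to the end-joining ligase complex, CDK1 drives entry into mitosis, ATR is a checkpoint kinase, and p53 arrests the cycle after DNA damage. Knockouts came from lentiviral Cas9 and were grown from single cells, so each knockout comparison sets line against line, and no knockout was measured without irradiation. Drugs were added 1 hour before irradiation and kept on.

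Libraries held 5590061 to 18585999 counts. Replicates were further apart in the first experiment, with a common biological coefficient of variation of 0.187 against 0.0361 and 0.0345 in the others. It is not stated whether the paired libraries stem from independent cultures; the p-values reflect the scatter of these libraries alone, and that scatter could be technical. MB21D1, the cGAS gene, had 20 and 15 counts in cGAS KO and 251 and 254 in WT at 5 days, and TMEM173, the STING gene, had 127 and 103 in STING KO and 1214 and 894 in WT. XRCC4 mRNA in the XRCC4 KO libraries overlapped WT at 5 days (7.63 and 6.37 against 9.62 and 7.41 CPM) and lay above it at 3 days (8.80 and 8.36 against 7.06 and 7.14), which does not check the label, because small edits need not lower an mRNA. The RPE-1 libraries labelled WT had 2 and 100 MB21D1 counts, those labelled WT cGAS 6199 and 6158, and those labelled p53 KO 8 and 6. WT replicate 2 therefore stood apart from replicate 1, and the members' changes against RPE-1 WT are given with and without it; IRF1, ligand and list results in RPE-1 include it. Summed levels of 6 basal breast markers ran from 5930 to 29100 counts scaled to library size (CPM) in MCF10A and from 1.04 to 13.2 in RPE-1. The pigment epithelium genes RPE65 and RLBP1 reached at most 0.0518 and 0.0635 CPM in RPE-1, while BEST1 ran from 1.21 to 2.24 and MITF from 15 to 27.2 CPM, so 2 of these 4 markers of the labelled tissue were near 0. In MCF10A BEST1 ran from 0.0867 to 9.66 and MITF from 3.13 to 23.9 CPM, so both ranges overlapped those in RPE-1.

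GBP3 had the highest level per length in 12 of 16 groups, GBP2 in 2 and GBP1 in 2; in 2 of the 12, CDK1i and p53 KO, the libraries of GBP3 overlapped those of the next member. Levels between members are compared here as FPKM, which divides by gene length. A member's share is the mean of its shares in the 2 libraries, so it can differ from its share of the mean sum. In untreated WT MCF10A, GBP2 made up 76.1% of the family's summed FPKM of 55.3 ± 15.0 (SD, n = 2), GBP3 16% and GBP1 7.42%. The other members together stayed far below: the share was 0.249% for GBP5, 0.169% for GBP4 and 0.0269% for GBP6. At 5 days after irradiation the sum was 118 ± 41.0 FPKM, and GBP1, GBP3 and GBP2 held 36.2%, 28.1% and 29.4% of it. Their order there was not resolved, since the libraries of GBP1 overlapped those of GBP3 and those of GBP3 overlapped those of GBP2. XRCC4 KO at 5 days had the lowest mean sum, 14.7 ± 0.463 FPKM, but its libraries overlapped those of XRCC4 KO with ATRi at 3 days (14.2 and 16.4) and of the CDK1i group (25 and 10.3). RPE-1 WT cGAS had the highest, 251 ± 37.2 FPKM. These orders cross experiments and were not tested. XRCC4 KO at 3 days was the group most led by 1 gene, with 81.1% of the family in GBP3. The DKO with ATRi and WT at 5 days were the 2 groups led by GBP1, which held 45% of 93.8 ± 5.64 FPKM in the DKO with ATRi.

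**Figure D1:**
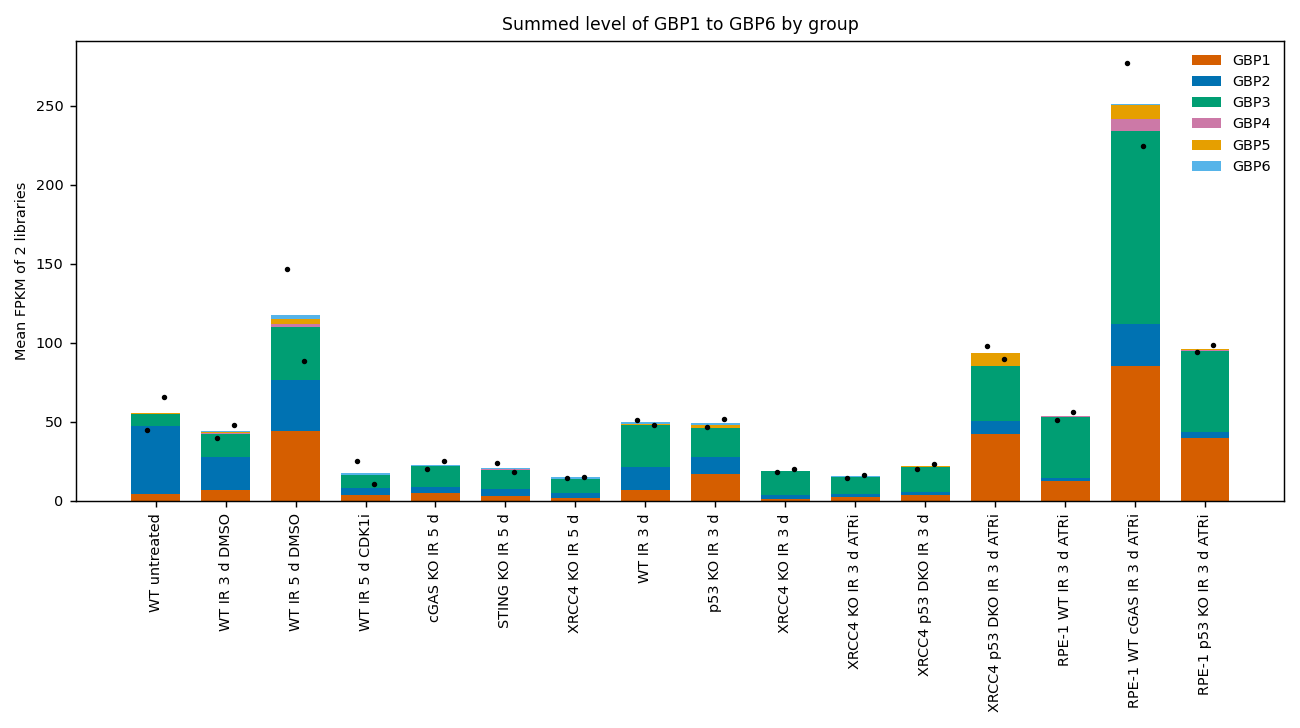
Mean FPKM of GBP1 to GBP6 stacked for each of the 16 groups, with the family sum of each of the 2 libraries as black points. GBP2 fills most of the untreated WT bar, GBP1 and GBP3 most of the WT 5-day bar, and the RPE-1 WT cGAS bar is the tallest at 251 FPKM.

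Over all libraries GBP1, GBP2 and GBP3 had more counts than GBP4, GBP5 and GBP6, but the 2 sets were not apart in every group. In the DKO with ATRi the mean level was 16.6 CPM for GBP2 and 14.6 CPM for GBP5. GBP1, GBP2 and GBP3 were at 3.00 CPM or more in every library, with 21388, 11321 and 24720 counts in all. GBP4, GBP5 and GBP6 had 1254, 1910 and 858 counts and were at 0 in 4, 2 and 5 of 32 libraries. CPM here are counts scaled by library total and normalisation factor within an experiment, so levels are set side by side across experiments without a test.

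**Figure D2:**
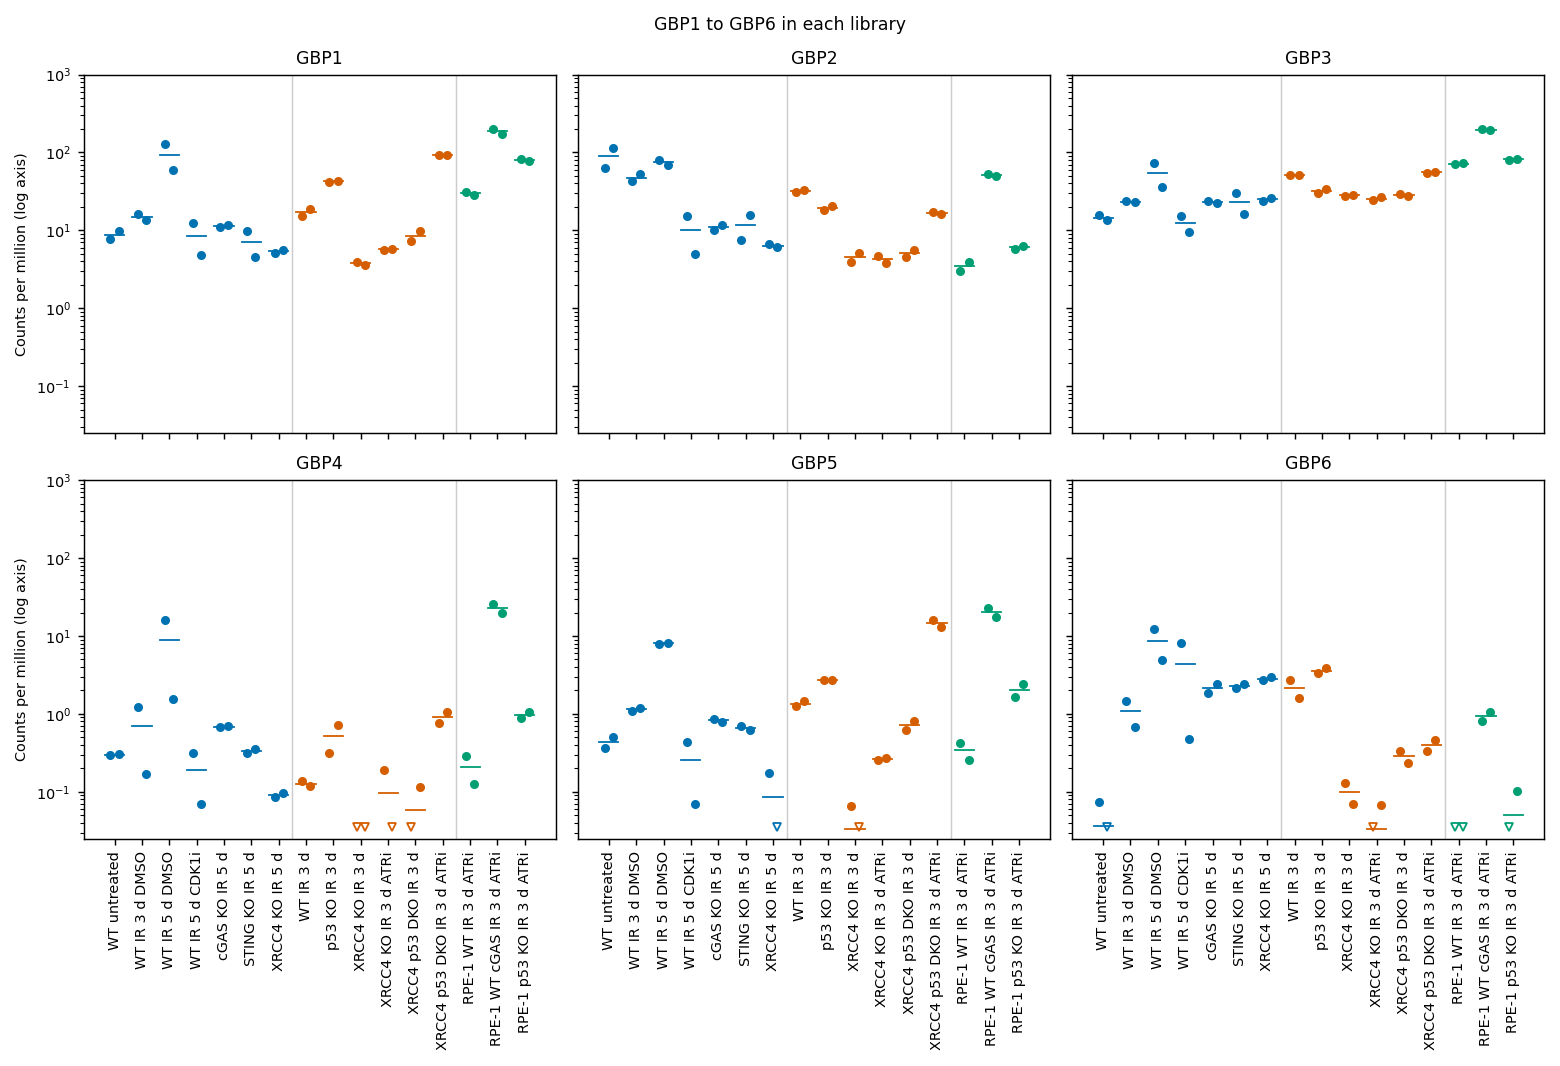
CPM of each member in every library on a log axis, 2 points per group with a bar at their mean, coloured by experiment; open triangles at the bottom mark libraries with 0 counts. GBP1 and GBP5 peak in WT at 5 days, DKO with ATRi and RPE-1 WT cGAS, whereas GBP2 is already high in untreated WT.

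The first comparison set irradiated WT MCF10A with DMSO against untreated WT over time. The untreated label names no DMSO, so irradiation and DMSO cannot be told apart in it. At 3 days 0 of 6 members passed, and at 5 days 5 of 6 rose while GBP2 did not pass. Over all 15190 genes tested, 6.52% were called in either direction at 3 days, and 15.1% were called higher at 5 days. Here and below, called, rose and fell mean a Benjamini-Hochberg adjusted p below 0.05 in edgeR's quasi-likelihood test over all genes of the experiment, and a value after ± beside a log2 fold change is its standard error. GBP1, which builds the coat on cytosolic bacteria, stood at 7.83 and 9.81 CPM in the untreated libraries, 16.1 and 13.6 at 3 days and 127 and 60.1 at 5 days. The 3 groups did not overlap, although the 5-day replicates were far from each other. The 5-day change was 3.41 ± 0.49 on the log2 scale (edgeR adjusted p = 0.0016), and 2.77 without 5-day replicate 1 (adjusted p = 0.00925). In bulk RNA, more cells that express a gene and more RNA per cell cannot be told apart.

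GBP5, the family member linked to NLRP3, had the most even replicates at 5 days. It stood at 0.366 and 0.506 CPM untreated, 1.10 and 1.20 at 3 days and 7.83 and 8.24 at 5 days. Its 5-day rise was 4.21 ± 0.43 (edgeR adjusted p = 0.000266). GBP5 was also the only member that rose between days 3 and 5 (2.82 ± 0.37, edgeR adjusted p = 0.0204), where 0.217% of all genes were called higher. That call ended without replicate 1 or 2 of the 3-day group or replicate 1 of the 5-day group (adjusted p = 0.222, 0.114 and 0.0583), and without replicate 2 of the 5-day group 4 members passed. It also ended on log2(FPKM + 0.1) (0.153), with edgeR's legacy method (0.0685) and with only the groups compared (0.321). With the replicate number as a block over all groups of the experiment, knockouts included, 3 members rose between days 3 and 5. They were GBP1 (2.61, edgeR adjusted p = 0.0186), GBP4 (3.42, 0.0155) and GBP5 (2.84, 0.00856).

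GBP3 rose by 1.90 ± 0.37 (edgeR adjusted p = 0.00553; 1.30 without 5-day replicate 1, adjusted p = 0.0381), from 15.7 and 13.4 CPM untreated through 23.9 and 22.8 at 3 days to 73.7 and 36.2 at 5 days. GBP4 rose by 4.82 ± 1.12 (edgeR adjusted p = 0.00926), but its 5-day replicates had 234 and 26 counts. Without the first of these the change was 2.34 (adjusted p = 0.0411), without the second 5.71, and without untreated replicate 1 the call ended (adjusted p = 0.0679). The GBP4 call also ended on log2(FPKM + 0.1) (0.0714) and log2(FPKM + 1) (0.097) and with only the groups compared (0.0996). GBP6 had 1 and 0 counts untreated, 24 and 4 at 3 days and 179 and 83 at 5 days. The 5-day ratio of GBP6 was 196 (95% counting interval 34.9 to 7790), which rests on a single untreated count, and the call (edgeR adjusted p = 0.00722) ended without either untreated library (adjusted p = 0.0703 and 0.0544). Counting intervals cover counting error only.

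GBP2 behaved apart from the other members. It was already at 63.2 and 115 CPM in the untreated libraries, 42.6 and 52.7 at 3 days and 79.4 and 69.5 at 5 days. The untreated and 5-day groups overlapped, and the 5-day difference was -0.26 ± 0.45 (edgeR adjusted p = 0.703). At 3 days the uncalled differences ran from -0.91 ± 0.46 for GBP2 (adjusted p = 0.258) to 1.59 ± 1.66 for GBP4 (adjusted p = 0.594) among the members with more than 3 counts in each group. In this 3-day comparison 1 member had an unadjusted p below 0.05, and DESeq2, limma and the other settings tried also called 0.

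Genes of the pathways that induce the family moved over the same 5 days as follows, from lists of pathway genes. Of 15 tested JAK-STAT-IRF genes, 7 rose and 1 fell, with a list median of 0.51 beside 0.00452 over all genes. USP18, a brake on type I interferon receptors, rose by 4.06 ± 0.60 and IRF7, an interferon gene activator, by 4.04 ± 0.58 (edgeR adjusted p = 0.00171 and 0.00165). IRF1 did not pass (0.30 ± 0.28, edgeR adjusted p = 0.447): it stood at 42.2 and 37.4 CPM untreated and 64.5 and 33.7 at 5 days. Of 15 tested genes of interferon-gamma antigen presentation, 11 rose and 0 fell, among them CD74, the class II invariant chain (3.32 ± 0.38, edgeR adjusted p = 0.000626). IFNG, the interferon-gamma gene, had 1 count in all 32 libraries together. IFNL1, a type III interferon, had 0 and 0 counts untreated and 63 and 14 at 5 days, and IFNB1, a type I interferon, had 0 and 0 and then 14 and 4.

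Of 12 tested genes linked to GBPs in pyroptosis and host defence, 7 rose and 1 fell at 5 days. NLRP3 rose by 5.89 ± 0.81 (edgeR adjusted p = 0.001) and APOL1, an apolipoprotein of cell-autonomous defence, by 3.45 ± 0.71 (adjusted p = 0.00733). Of 11 tested related GTPases 5 rose and 0 fell, among them the antiviral dynamin-like GTPases MX1 (6.69 ± 1.08, edgeR adjusted p = 0.00286) and MX2, which went from 1 and 0 counts to 1412 and 287. Of 5 prenylation enzymes, which attach the lipid anchor, 0 rose and 2 fell (RCE1 -0.62 ± 0.12 and FNTA -0.34 ± 0.08, edgeR adjusted p = 0.00555 and 0.0101). Of 10 tested neighbours of the cluster on 1p22, 3 rose and 2 fell, with a median of 0.17. The share of all genes called lower at 5 days is not given here, so the falls in these lists have no background beside them.

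The second question was what cell cycle arrest or loss of cGAS, STING or XRCC4 did to the 5-day levels. Against irradiated WT with DMSO, 5 of 6 members fell with CDK1i and in each of the cGAS, STING and XRCC4 KO lines, and in all 4 comparisons the member that did not pass was GBP6. The 4 comparisons share the same 2 control libraries. The knockout labels name no DMSO, so line and DMSO cannot be told apart in the knockout comparisons. Fitted with the 4 libraries of the comparison alone, 0 members passed with CDK1i, and 3 passed in each knockout. Over all genes, 7.37% were called lower with CDK1i, 6.88% in cGAS KO, 7.73% in STING KO and 12.4% in XRCC4 KO.

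GBP1 fell by 3.43 ± 0.48 on the log2 scale with CDK1i (edgeR adjusted p = 0.00493), to 12.3 and 4.89 CPM. It stood at 10.9 and 11.6 CPM in cGAS KO, 9.81 and 4.53 in STING KO and 5.12 and 5.59 in XRCC4 KO, with changes of -3.05 ± 0.47, -3.69 ± 0.49 and -4.12 ± 0.51 (edgeR adjusted p = 0.00393, 0.00202 and 0.000874). All 8 of these libraries lay below the 127 and 60.1 CPM of the DMSO group, on either side of the untreated 7.83 and 9.81 CPM. Without WT 5-day replicate 1 the changes were -2.80 with CDK1i, -2.41, -3.05 and -3.48 and all 4 calls held; the STING KO change was -4.36 without STING KO replicate 1, whereas the cGAS KO call ended without cGAS KO replicate 1 (adjusted p = 0.0582). GBP5 fell by 4.89 ± 0.44 with CDK1i, and no other tested gene had a smaller p in that comparison (edgeR adjusted p = 0.000533). Its levels were 0.436 and 0.0689 CPM with CDK1i, 0.865 and 0.779 in cGAS KO, 0.706 and 0.622 in STING KO and 0.173 and 0 in XRCC4 KO. The knockout changes of GBP5 were -3.26 ± 0.37 and -3.57 ± 0.39 in cGAS and STING KO (edgeR adjusted p = 0.000469 and 0.000449), and in XRCC4 KO the ratio was 0.0113 (95% counting interval 0.00137 to 0.0414; adjusted p = 0.000131). With CDK1i, leaving out replicate 1 moved the values to -4.25 for GBP1, -3.91 for GBP2 and -6.68 for GBP5, and leaving out replicate 2 to -2.24 for GBP2 and -4.14 for GBP5, all still called. In XRCC4 KO the GBP5 change was -5.45 without XRCC4 KO replicate 2 and was called without either library, although replicate 2 holds no GBP5 count.

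GBP2 fell in all 4, with changes of -2.86 ± 0.50 with CDK1i, -2.77 ± 0.50 in cGAS KO, -2.67 ± 0.50 in STING KO and -3.55 ± 0.53 in XRCC4 KO (edgeR adjusted p = 0.00947, 0.00785, 0.00798 and 0.00199). Its levels were 15.4 and 4.96 CPM with CDK1i, 10.1 and 11.8 in cGAS KO, 7.53 and 15.9 in STING KO and 6.59 and 6.08 in XRCC4 KO, so none reached the lowest WT library without CDK1i, 42.6 CPM. The CDK1i group overlapped each knockout and STING KO overlapped cGAS KO, whereas XRCC4 KO lay below both cGAS KO and STING KO. The cGAS KO call ended without either cGAS KO library (adjusted p = 0.0892 and 0.0687) and the STING KO call without STING KO replicate 1 (adjusted p = 0.0614). Without STING KO replicate 2 the change was -3.30.

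GBP3 fell least of the called members in all 4. The changes were -2.12 ± 0.37 with CDK1i (edgeR adjusted p = 0.00896), -1.23 ± 0.36 in cGAS KO, -1.23 ± 0.36 in STING KO and -1.13 ± 0.36 in XRCC4 KO (adjusted p = 0.0486, 0.0454 and 0.0439). The 3 knockout calls of GBP3 were near the threshold: without WT 5-day replicate 1 the changes were -0.62, -0.63 and -0.53, and the calls ended (adjusted p = 0.311, 0.301 and 0.31). They also ended without either cGAS KO library (adjusted p = 0.209 and 0.223), without STING KO replicate 2 (0.23) and without either XRCC4 KO library (0.202 and 0.159), in cGAS and STING KO on the FPKM scales (0.0769 to 0.13), and in all 3 with no filter on low counts (0.136 to 0.156). In cGAS KO the GBP3 call ended with edgeR's legacy method too (0.0523). With CDK1i the GBP3 change was -1.52 without WT 5-day replicate 1, and the CDK1i call ended without CDK1i replicate 2 (0.0683).

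GBP4 fell from 234 and 26 counts to 5 and 1 with CDK1i, 11 and 8 in cGAS KO, 4 and 4 in STING KO and 1 and 1 in XRCC4 KO. The changes were -5.40 ± 1.13 with CDK1i, -3.64 ± 0.92 in cGAS KO and -4.66 ± 1.09 in STING KO (edgeR adjusted p = 0.0131, 0.0248 and 0.0158), and the XRCC4 KO ratio was 0.011 (95% counting interval 0.00133 to 0.0403; adjusted p = 0.00747). Without WT 5-day replicate 1 the values were -2.91 with CDK1i, where the call held (adjusted p = 0.0398), -3.94 in XRCC4 KO, where it also held (0.0109), and -1.15 and -2.17 in cGAS and STING KO, where it ended (0.236 and 0.0608). Without WT 5-day replicate 2 they were -6.29, -7.31, -4.53 and -5.55 in the same order. Without CDK1i replicate 1 the CDK1i value was -6.78 (0.0431). The call also ended without CDK1i replicate 2 (0.0974) and without either library of cGAS KO (0.172 and 0.134), STING KO (0.104 and 0.0903) or XRCC4 KO (0.0946 and 0.0876). On log2(FPKM + 1) it ended in all 4 comparisons (0.0828 to 0.23), on log2(FPKM + 0.1) in all but XRCC4 KO (0.0838 to 0.252), and with no filter in cGAS and STING KO (0.082 and 0.057).

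GBP6 did not pass in any of the 4 comparisons, although each estimate was downward. In the 3 knockouts its estimates were larger falls than those called for GBP3. With CDK1i it had 132 and 7 counts, and the difference from DMSO was -0.94 ± 0.71 (edgeR adjusted p = 0.403). It had 30 and 28 counts in cGAS KO, 27 and 27 in STING KO and 31 and 31 in XRCC4 KO, close within each pair, and the differences were -2.01 ± 0.79, -1.92 ± 0.80 and -1.59 ± 0.79 (edgeR adjusted p = 0.12, 0.137 and 0.162). The knockout levels thus lay between the DMSO group, at 12.3 and 4.92 CPM, and the untreated group, at 0.0732 and 0 CPM, and did not overlap either.

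**Figure D3:**
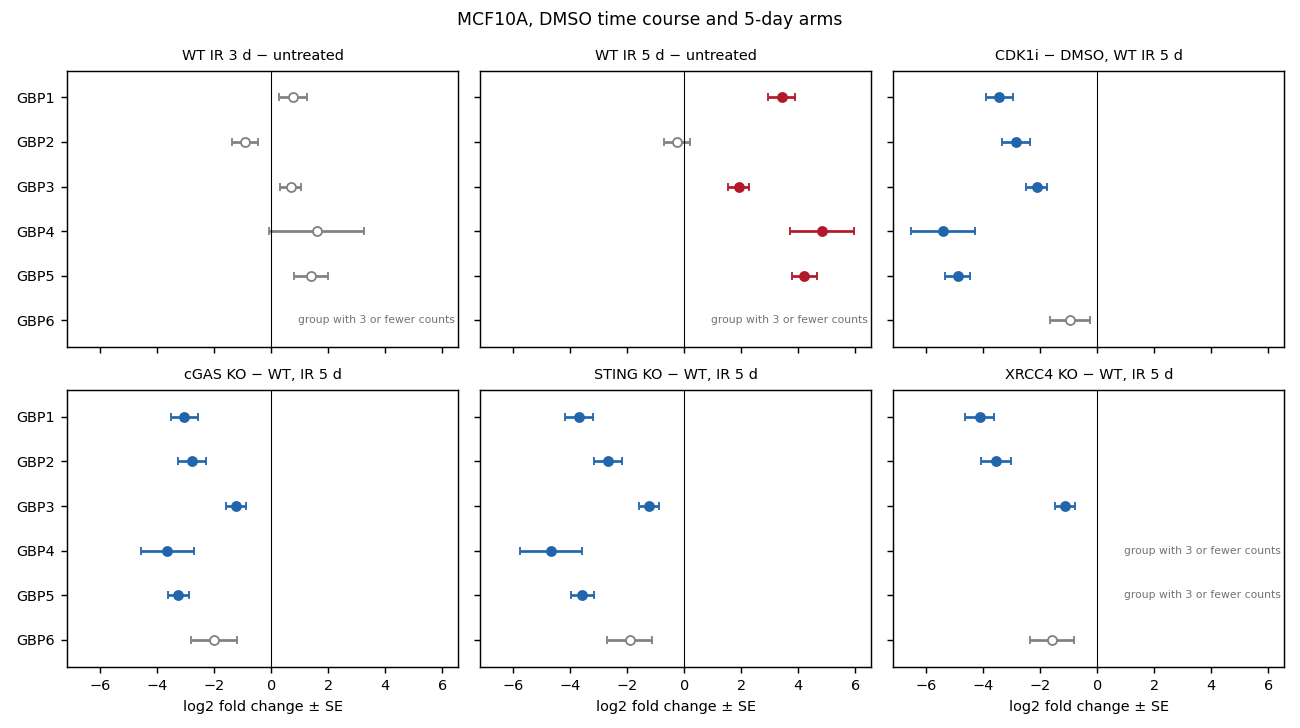
Log2 fold change with standard error of each member in 6 comparisons of the first MCF10A experiment; filled red and blue points rose or fell, open grey points did not pass, and members with 3 or fewer counts in a group are named without a point. GBP1 to GBP5 lie left of 0 in the CDK1i, cGAS KO and STING KO panels, and GBP6 is open in all 4 panels against WT at 5 days.

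The same 4 groups were also set against untreated WT, a comparison that for the knockouts mixes line and irradiation. GBP2 was the 1 member called lower in each: the changes were -3.11 ± 0.50 with CDK1i, -3.02 ± 0.50 in cGAS KO, -2.93 ± 0.50 in STING KO and -3.81 ± 0.54 in XRCC4 KO (edgeR adjusted p = 0.00289, 0.00176, 0.00191 and 0.000493). The GBP2 change with CDK1i was -4.16 without CDK1i replicate 1 and -2.49 without replicate 2, and that in STING KO -3.56 without STING KO replicate 2, all still called; fitted with the 4 libraries of the comparison alone the CDK1i call ended (adjusted p = 0.0858). Over all genes 15.3%, 19.0%, 19.3% and 23.5% were called lower in these comparisons, so 1 of 6 members was near that share. GBP6 was the 1 member called higher, with CDK1i and in XRCC4 KO, where 13.5% and 22.8% of all genes were called higher. There too 1 of 6 members was near the share of all genes. The GBP6 ratio to untreated was 107 with CDK1i (95% counting interval 18.9 to 4260; edgeR adjusted p = 0.0212) and 66.7 in XRCC4 KO (11.5 to 2680; adjusted p = 0.0339). In cGAS and STING KO it was 49.3 (8.5 to 1980) and 53 (9.12 to 2130) and did not pass (adjusted p = 0.0618 and 0.057). All 4 ratios rest on 1 untreated count, and the 2 calls ended without either untreated library (adjusted p = 0.131 and 0.113 with CDK1i, 0.163 and 0.154 in XRCC4 KO), without CDK1i replicate 1 (0.223) and without either XRCC4 KO library (0.0782 and 0.087). They ended too with no filter (0.0782 and 0.127) and on log2(FPKM + 1) (0.134 and 0.168). GBP1, GBP3, GBP4 and GBP5 did not pass in any of the 4, with GBP1 between -0.71 ± 0.53 in XRCC4 KO and 0.36 ± 0.49 in cGAS KO (edgeR adjusted p = 0.301 and 0.589).

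IRF1 moved the way GBP2 did against untreated WT. It fell against untreated with CDK1i (-1.28 ± 0.29, edgeR adjusted p = 0.0104) and in cGAS, STING and XRCC4 KO (-0.80 ± 0.28, -1.03 ± 0.29 and -1.18 ± 0.29, adjusted p = 0.0498, 0.0179 and 0.00822). In the first experiment, markers of immune and blood cells moved with the GBP2 level. Their summed level was 32.7 to 79.0 CPM in the 6 libraries of WT untreated or with DMSO and 5.92 to 13.4 CPM in the 8 libraries of CDK1i and the knockouts. CD14 made up most of it, at 30.0 to 78.5 CPM in the first set and 4.05 to 11.0 CPM in the second, whereas PTPRC, CD3E, LYZ and HBB stayed at or below 0.371 CPM in all MCF10A libraries. ITGAM, a myeloid integrin, ran from 0.404 to 5.97 CPM over the MCF10A libraries, and its ranges in these sets overlapped. In the other experiments the order of the summed marker level was not that of GBP2. The MCF10A DKO had a sum of 35.9 and 38 CPM beside GBP2 at 4.59 and 5.65 CPM. MCF10A p53 KO had 9.89 and 10.2 beside 18.4 and 20.6. RPE-1 p53 KO had 4.87 and 4.95 beside 5.70 and 6.36, and RPE-1 WT cGAS 2.68 and 2.97 beside 52.2 and 49.3. The part of these markers in the GBP2 difference was not tested.

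**Figure D4:**
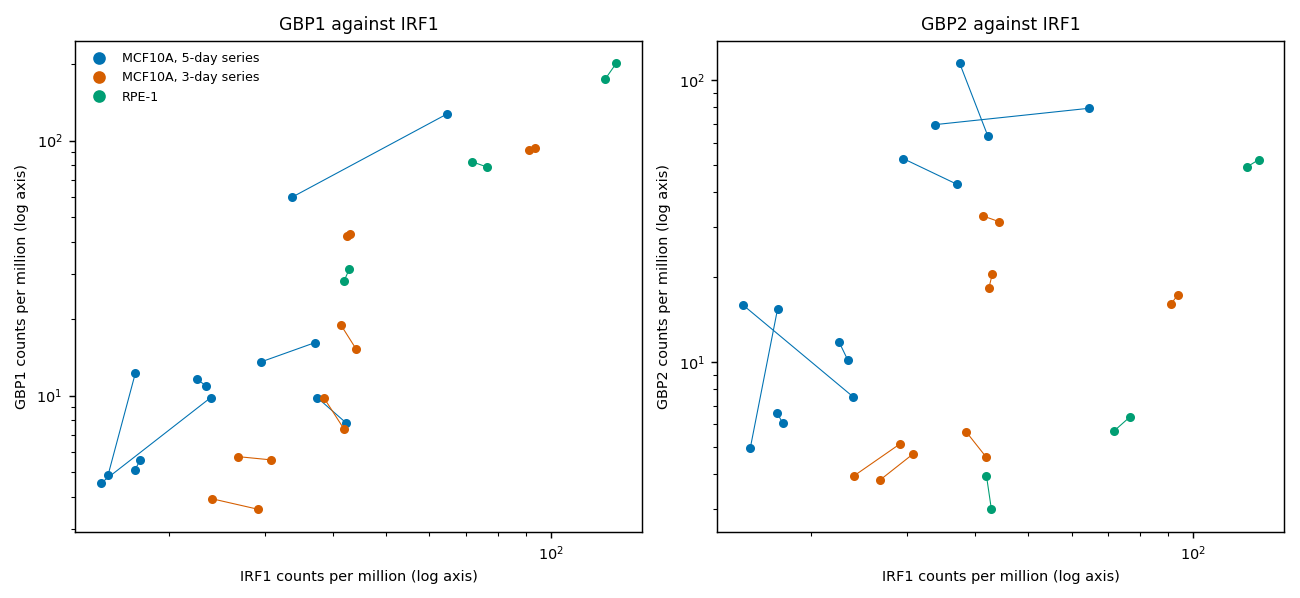
GBP1 (left) and GBP2 (right) against IRF1 in CPM on log axes, with the 2 libraries of a group joined by a line. At IRF1 levels near 42 CPM, GBP1 is 7.83 CPM in an untreated WT library and 31.3 in an RPE-1 WT library, while GBP2 is 63.2 and 3.00 CPM in the same 2 libraries.

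The pathway lists moved against 5-day WT as follows. Of 15 tested JAK-STAT-IRF genes, 11 fell with CDK1i and 0 rose, 7 fell and 1 rose in cGAS KO, 8 fell and 1 rose in STING KO, and 10 fell and 1 rose in XRCC4 KO. Their medians were -1.58, -0.82, -1.02 and -1.19 beside medians of -0.0356, -0.0241, -0.0131 and -0.0301 over all genes. Of 15 genes of interferon-gamma antigen presentation, 13, 12, 11 and 11 fell and 0 rose. CIITA, the class II transactivator, changed by -3.73 ± 0.58 in cGAS KO and -3.99 ± 0.63 in STING KO (edgeR adjusted p = 0.00257 and 0.00232). Of the 10 tested neighbours on 1p22, 0 fell with CDK1i and in cGAS KO, 1 in STING KO and 2 in XRCC4 KO, and 0 rose in any of them. With CDK1i the neighbours' median was 0.13.

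In the second experiment the first comparison was p53 KO against WT, both irradiated. GBP1, GBP5 and GBP6 rose, and GBP2 and GBP3 fell, beside 25.9% of all 16632 tested genes called higher and 27.0% lower. The 2 of 6 members that fell were near the share of all genes. GBP1 stood at 15.2 and 18.9 CPM in WT and 42.3 and 43.1 in p53 KO, a change of 1.31 ± 0.09 (edgeR adjusted p = 1.85e-12). GBP5 went from 1.25 and 1.46 to 2.68 and 2.69 CPM (0.98 ± 0.28, adjusted p = 0.00436). GBP6 went from 2.70 and 1.58 to 3.31 and 3.88 CPM (0.77 ± 0.24, edgeR adjusted p = 0.00743), a call that ended without WT replicate 2 (0.246) or p53 KO replicate 2 (0.0618), with DESeq2 (0.325) and on log2(FPKM + 0.1) (0.0595). GBP2 was lower, at 18.4 and 20.6 CPM against 31.5 and 33.0 (-0.74 ± 0.09, edgeR adjusted p = 7.18e-08; 0.0574 by limma on log2(FPKM + 0.1)), and so was GBP3, at 29.9 and 33.9 against 51.8 and 51.4 (-0.70 ± 0.07, adjusted p = 2.49e-09). GBP4 had 6 and 11 counts against 2 and 2 and did not pass (1.91 ± 0.81, edgeR adjusted p = 0.0515). The family sum was 49.2 ± 3.50 FPKM in p53 KO and 49.5 ± 2.38 in WT. GBP1 held 35.1% of it against 13.9%, and GBP2 20.9% against 29.3%. IRF1 was at 42.3 and 43.0 CPM in p53 KO and 44.1 and 41.3 in WT, and did not pass.

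In XRCC4 KO against WT at 3 days 5 of 6 members fell, beside 27.5% of all genes called lower. GBP2 fell most among the members with over 3 counts in each group, to 3.94 and 5.13 CPM (-2.84 ± 0.12, edgeR adjusted p = 2.11e-16). GBP1 was at 3.94 and 3.58 CPM (-2.19 ± 0.15, adjusted p = 3.11e-12) and GBP3 at 27.5 and 28.7 CPM (-0.88 ± 0.07, adjusted p = 7.77e-11). The scarce members almost left the table. GBP5 had 1 and 0 counts against 18 and 25 in WT, a ratio of 0.0249 (95% counting interval 0.000616 to 0.146; edgeR adjusted p = 3.1e-06), and GBP6 had 2 and 1 against 39 and 27, a ratio of 0.0486 (0.00978 to 0.148; adjusted p = 2.34e-07). GBP4 had 0 counts in both libraries and 4 over the WT group, and did not pass (edgeR adjusted p = 0.101). In XRCC4 KO at 5 days GBP6 had 31 and 31 counts, in the separately fitted first experiment. IRF1 fell, with a change of -0.69 ± 0.08 (edgeR adjusted p = 1.02e-07). Of 16 tested antigen presentation genes 13 fell and 1 rose, with a median of -1.27 beside -0.0115 over all genes.

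GBP1 was the only member called with ATRi in XRCC4 KO, and GBP4, GBP5 and GBP6 had too few counts to show whether they changed little. GBP1 rose from 3.94 and 3.58 to 5.6 and 5.76 CPM (0.59 ± 0.20, edgeR adjusted p = 0.0382), while 6.67% of all genes were called higher, and this call ended without any 1 of the 4 libraries (adjusted p from 0.105 to 0.207). GBP2 was at 4.71 and 3.82 CPM and GBP3 at 24.3 and 26.9, with differences of -0.08 ± 0.19 and -0.14 ± 0.08 (edgeR adjusted p = 0.841 and 0.289). GBP5 had 4 and 4 counts with ATRi, a ratio of 7.69 (95% counting interval 1.03 to 341), and did not pass (edgeR adjusted p = 0.127). GBP4 had 3 and 0 counts and GBP6 0 and 1, too few for a fold. Of 15 JAK-STAT-IRF genes 5 rose and 1 fell, among them IRF9, the DNA-binding partner of STAT2 (1.06 ± 0.10, edgeR adjusted p = 9.03e-09).

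Without ATRi the XRCC4 p53 DKO stayed below p53 KO. Against p53 KO 5 of 6 members fell, beside 25.0% of all genes called lower, and GBP3 did not pass (-0.15 ± 0.07, edgeR adjusted p = 0.0987). GBP1 was at 7.40 and 9.78 CPM, a change of -2.32 ± 0.10 (edgeR adjusted p = 3.28e-16), and GBP2 at 4.59 and 5.65 CPM, a change of -1.92 ± 0.13 (adjusted p = 1.43e-12). GBP5 and GBP6 had 25 and 10 counts over the group against 92 and 122 (-1.90 ± 0.32 and -3.61 ± 0.37, edgeR adjusted p = 1.24e-05 and 2.72e-09). GBP4 had 2 counts against 17, a ratio of 0.115 (95% counting interval 0.0129 to 0.484; edgeR adjusted p = 0.0102), a call that ended without p53 KO replicate 2 (0.127) or DKO replicate 1 (0.122) and with DESeq2 (0.0974). Against XRCC4 KO, GBP1 and GBP5 rose and the other members did not pass, beside 32.2% of all genes called higher. Thus 2 of 6 members was near the share of all genes. That rise was 1.18 ± 0.17 for GBP1 (edgeR adjusted p = 1.5e-06) and, for GBP5, a ratio of 21 (95% counting interval 3.44 to 863; adjusted p = 0.000278) that rests on 1 XRCC4 KO count and did not pass on log2(FPKM + 1) (0.172). GBP2 and GBP3 differed by 0.18 ± 0.18 and 0.03 ± 0.08 (edgeR adjusted p = 0.398 and 0.778), and their libraries overlapped.

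With ATRi in the DKO 5 of 6 members rose, beside 26.1% of all genes called higher. GBP1 went from 7.40 and 9.78 to 93.9 and 91.9 CPM, a rise of 3.44 ± 0.09 (edgeR adjusted p = 6.78e-21), the 18th smallest p of 16632 genes. GBP5 went from 0.616 and 0.815 to 16.2 and 13.1 CPM (4.33 ± 0.20, adjusted p = 3.92e-16). In WT at 5 days, in the other experiment, GBP1 was at 127 and 60.1 CPM and GBP5 at 7.83 and 8.24. GBP2 rose by 1.70 ± 0.13 to 17.2 and 16 CPM, and GBP3 by 0.96 ± 0.07 to 55.2 and 56.3 CPM (edgeR adjusted p = 1.46e-11 and 3.17e-12). GBP4 went from 0 and 2 counts to 14 and 23, a ratio of 16.2 (95% counting interval 4.19 to 139; edgeR adjusted p = 0.000141). Without DKO replicate 1 the GBP4 change was 2.91 (adjusted p = 0.00806), and without replicate 2 no GBP4 count was left in the DKO (0.00075), so its size rests on 1 library. GBP6 had 6 and 4 counts without ATRi and 6 and 10 with it, overlapping, and did not pass (0.48 ± 0.61, edgeR adjusted p = 0.516). GBP2 with ATRi in the DKO was at 16.6 ± 0.856 CPM (SD, n = 2), and in WT without ATRi at 32.2 ± 1.03, a pair that was not tested.

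IRF1 rose too, from 41.9 and 38.5 to 93.7 and 91.1 CPM (1.20 ± 0.07, edgeR adjusted p = 3.61e-14). Of 15 JAK-STAT-IRF genes 11 rose and 1 fell, and of 16 antigen presentation genes 13 rose and 0 fell, with medians of 0.36 and 1.22 beside -0.0237 over all genes. IFNL1 had 1 and 0 counts without ATRi and 258 and 261 with it, and IFNB1 0 and 1 and then 27 and 56, the highest counts of these 2 ligands in any group. Host defence genes rose in 9 of 12 cases and fell in 2, led by UBE2L6 (3.44 ± 0.09, edgeR adjusted p = 2.55e-20), the ISG15-conjugating enzyme. Among the 10 neighbours on 1p22, 2 rose and 4 fell. The share of all genes called lower with ATRi in the DKO is not given here.

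With ATRi, the DKO had all 6 members higher than XRCC4 KO, beside 35.7% of all genes. The changes were 4.03 ± 0.10 for GBP1, 1.95 ± 0.14 for GBP2, 1.13 ± 0.07 for GBP3 and 5.76 ± 0.26 for GBP5 (edgeR adjusted p = 3.72e-22, 1.7e-12, 1.32e-13 and 4.84e-17). GBP4 and GBP6 had 37 and 16 counts against 3 and 1, ratios of 9.48 (95% counting interval 3.0 to 48.0) and 12.3 (1.91 to 516; edgeR adjusted p = 0.000439 and 0.00504). The GBP6 call ended without XRCC4 KO ATRi replicate 1 (adjusted p = 0.0672) and on log2(FPKM + 1) (0.133), and without XRCC4 KO ATRi replicate 2 the GBP4 change was 2.23 (0.0163). The difference between the 2 ATRi effects was tested as an interaction. It was called higher for GBP1 (2.85 ± 0.24), GBP2 (1.78 ± 0.24) and GBP3 (1.10 ± 0.11; edgeR adjusted p = 8.33e-10, 1.57e-06 and 8.24e-09), as it was for 13.0% of all genes. For GBP5 the estimate was 1.63 ± 2.19 and did not pass (adjusted p = 0.612), with 1 count in XRCC4 KO without ATRi, and GBP4 had none there.

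A second interaction compared the effect of XRCC4 loss in p53 KO with that in WT. It was called higher for GBP2 (0.92 ± 0.20), GBP3 (0.73 ± 0.10) and GBP5 (3.15 ± 1.05; edgeR adjusted p = 0.000531, 2.45e-06 and 0.0164), beside 20.9% of all genes. On the log2(FPKM + 0.1) and log2(FPKM + 1) scales these calls ended for GBP2 (limma adjusted p = 0.116 and 0.081) and GBP3 (0.0886 and 0.0876), and the GBP5 value was 0.43 (0.558) and -0.39. On log2(FPKM + 0.1) GBP4 passed in the other direction (-1.77, adjusted p = 0.0433). For GBP1 the difference did not pass (-0.13 ± 0.21, edgeR adjusted p = 0.647). The GBP5 value rests on 1 count in XRCC4 KO, and its call ended with DESeq2 (adjusted p = 0.0757) and without XRCC4 KO replicate 2 (2.32, 0.128) or DKO replicate 2 (0.0519).

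In RPE-1 the first comparison was WT cGAS against WT, both irradiated with ATRi. All 6 members rose, beside 29.8% of 15469 tested genes called higher. GBP3 was already high in WT, at 70.7 and 72.8 CPM, and rose to 201 and 193 (1.46 ± 0.05, edgeR adjusted p = 1.05e-14). GBP1 rose from 31.3 and 28.3 to 201 and 174 CPM (2.66 ± 0.08, adjusted p = 2.21e-12) and GBP2 from 3.00 and 3.94 to 52.2 and 49.3 CPM (3.86 ± 0.12, adjusted p = 2.62e-15). The scarce members changed most on the log2 scale. GBP4 went from 4 and 2 counts to 472 and 352 (6.77 ± 0.30, edgeR adjusted p = 1.76e-11) and GBP5 from 6 and 4 to 422 and 314 (5.89 ± 0.30, adjusted p = 3.57e-10). GBP6 had 0 counts in WT and 15 and 19 in WT cGAS, at least 9.34-fold higher against a floor of 3 counts over the WT group (edgeR adjusted p = 6.71e-05). Without WT replicate 2, the library with 100 MB21D1 counts, all 6 calls held, with 2.58 for GBP1, 4.07 for GBP2, 1.47 for GBP3, 6.28 for GBP4 and 5.54 for GBP5. Without WT replicate 1 they were 2.73, 3.68, 1.43, 7.41 and 6.28. Only for GBP4 did leaving out 1 WT library, replicate 1, move the fold by more than 1.5 times.

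In p53 KO against WT 5 of 6 members rose, beside 34.2% of all genes, with MB21D1 at 8 and 6 counts. GBP1 was at 82.5 and 78.7 CPM (1.44 ± 0.08, edgeR adjusted p = 2.9e-09) and GBP2 at 5.70 and 6.36 CPM (0.79 ± 0.17, adjusted p = 0.000578). GBP3 was at 81.0 and 83.3 CPM, only 0.20 ± 0.05 above WT (adjusted p = 0.00261). GBP4 had 17 and 21 counts and GBP5 32 and 48, changes of 2.23 ± 0.68 and 2.58 ± 0.53 (edgeR adjusted p = 0.00876 and 0.000598). GBP6 had 0 and 2 counts against 0 and did not pass (adjusted p = 0.24). Without WT replicate 2, 4 members passed, with 1.35 for GBP1, 0.99 for GBP2, 0.20 for GBP3 and 2.22 for GBP5, and the GBP4 call ended (1.73, adjusted p = 0.0992). Without WT replicate 1 GBP4 was at 2.86. The GBP3 call also ended with no filter on low counts (adjusted p = 0.0564), the GBP4 call on both FPKM scales (0.211 and 0.39) and the GBP5 call on log2(FPKM + 1) (0.0845). Against WT cGAS all 6 members were lower in p53 KO, beside 32.8% of all genes. GBP1 and GBP3 were lower by similar amounts (-1.22 ± 0.07 and -1.26 ± 0.05), GBP2, GBP4 and GBP5 by more (-3.07 ± 0.10, -4.54 ± 0.21 and -3.31 ± 0.19; edgeR adjusted p from 4.17e-15 to 1.53e-09 over these 5), and GBP6 at a ratio of 0.0543 (95% counting interval 0.00632 to 0.212; adjusted p = 0.000101).

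**Figure D5:**
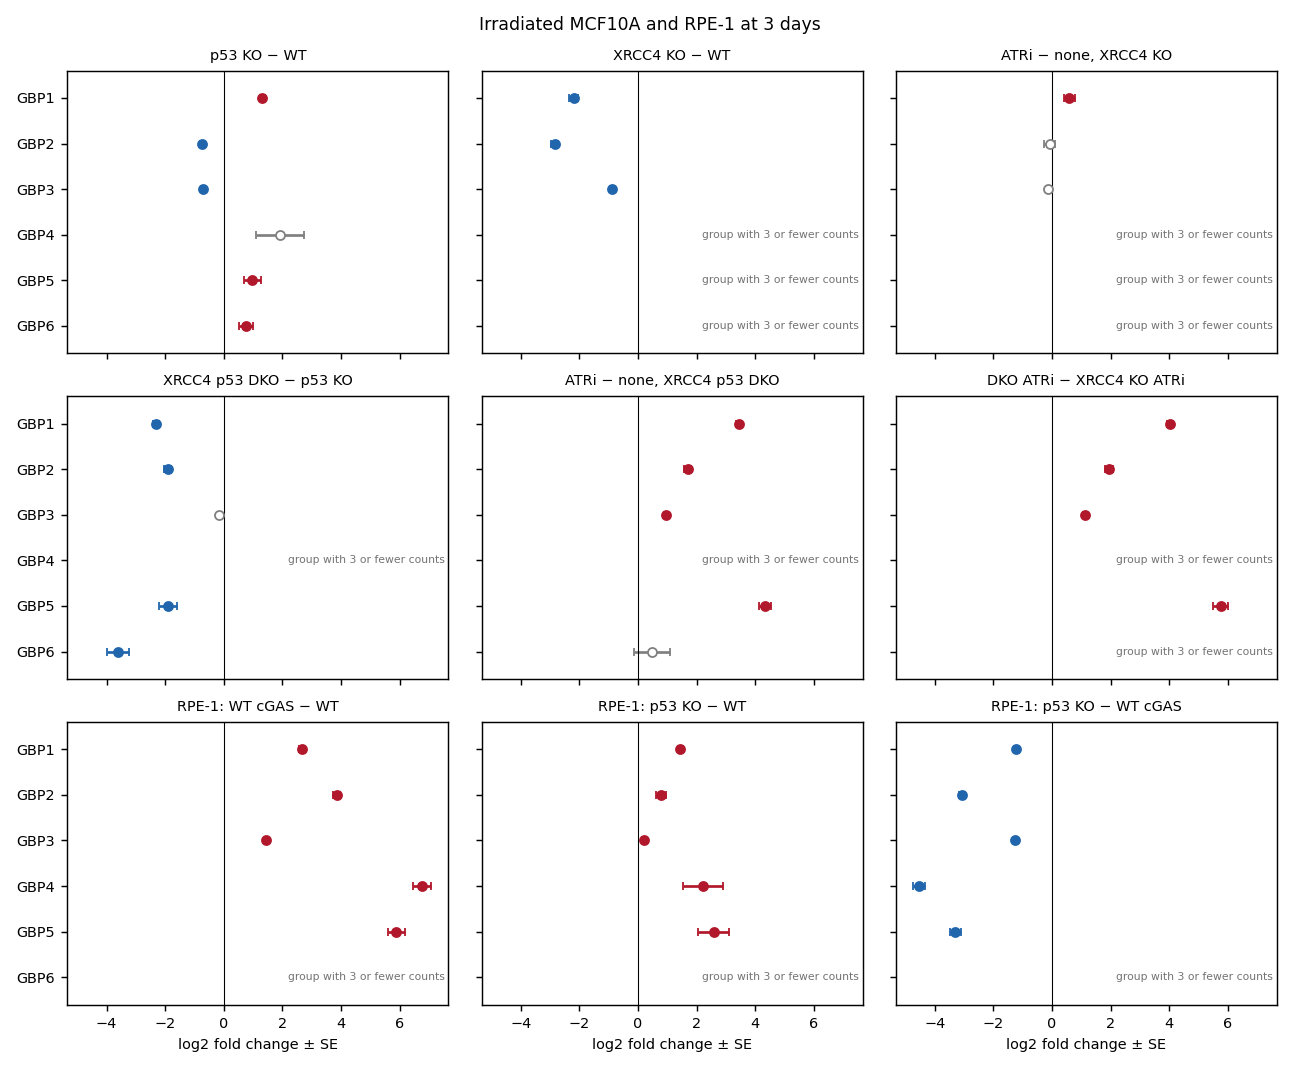
Log2 fold change with standard error of each member in 9 comparisons of irradiated MCF10A and RPE-1 at 3 days; filled red and blue points rose or fell, open grey points did not pass, and members with 3 or fewer counts in a group are named without a point. In p53 KO against WT GBP1 lies right and GBP2 and GBP3 left of 0, and with ATRi in the DKO GBP1 and GBP5 lie furthest right.

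IRF1 stood in the order of the members in RPE-1, at 42.8 and 41.9 CPM in WT, 132 and 126 in WT cGAS and 71.8 and 76.6 in p53 KO. Its rises over WT were 1.61 ± 0.06 and 0.81 ± 0.06 (edgeR adjusted p = 2.4e-14 and 8.05e-10). Of 16 tested antigen presentation genes 15 rose and 0 fell in WT cGAS, and 11 rose and 0 fell in p53 KO. Of 15 JAK-STAT-IRF genes 13 rose and 0 fell, and 11 rose and 2 fell. IFNB1 had 0 counts in WT, 27 and 24 in WT cGAS and 6 and 15 in p53 KO, and IFNL1 had 0, 24 and 15, and 2 and 2. APOL3, an apolipoprotein that works with GBP1 against bacteria, rose by 4.18 ± 0.16 in WT cGAS (edgeR adjusted p = 6.34e-14).

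The order of groups for each member was as follows within an experiment, from CPM means. In the second experiment GBP1 and GBP5 had the same order, DKO with ATRi, p53 KO, WT, DKO, XRCC4 KO with ATRi and XRCC4 KO, and none of the 5 pairs of neighbours overlapped. GBP2 had WT first, then p53 KO and DKO with ATRi, and did not separate DKO, XRCC4 KO and XRCC4 KO with ATRi from their neighbours. GBP3 had DKO with ATRi first and did not separate DKO from XRCC4 KO. GBP4 did not separate its 4 lowest groups from their neighbours, and GBP6, with p53 KO and WT highest, did not separate the DKO with and without ATRi. In the first experiment WT at 5 days was highest for GBP1, GBP3, GBP4, GBP5 and GBP6, and untreated WT for GBP2, where it overlapped WT at 5 days. In RPE-1 all 6 members had WT cGAS first, then p53 KO and WT, and the single overlap was that of GBP6 between p53 KO and WT. Groups without overlap were common over all genes tested. Their share per comparison ran from 47.2% to 74.7% in the first experiment, 54.5% to 84.9% in the second and 79.4% to 83.2% in RPE-1.

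Over the 16 group means of log2 CPM, each centred within its experiment, GBP1 and GBP5 were the most alike pair of members (Pearson r = 0.954), followed by GBP4 and GBP5 (0.922). The least alike pair was GBP2 and GBP6 (0.293). These correlations are descriptions over 16 groups that share libraries and control groups. Among 12919 other genes, the most like GBP1 were SAMHD1, a nucleotide hydrolase that restricts viruses (0.967), the long noncoding RNA BISPR (0.956) and CMTR1, a cap methyltransferase (0.954), followed by IFITM1 and DHX58. GBP5 was closest to BISPR (0.969), BST2 (0.962) and IFITM1 (0.959), then SAMHD1 and APOL6. BISPR and BST2 are neighbours, and without a stated strand of counting their reads could mix. GBP2 was closest to IL15RA, the interleukin-15 receptor chain (0.95), EFNA1 (0.943) and ERAP1, a peptide-trimming enzyme of antigen presentation (0.939), and then to CFB and RORA. GBP3 was closest to APOL2 (0.96), SHISA5, TRANK1, PML and SP110, and GBP4 to HLA-F (0.954), ERAP2, PSME2, B2M and ODF3B. GBP6 shared none of these genes: the closest included ELF3-AS1 (0.912), UBA6 (0.885), STEAP4 (0.88) and CCL28 (0.868). Without the centring, r was under 0.5 for 5 of the named genes, TRANK1 with GBP3 (0.0171), ODF3B with GBP4 (0.254), UBA6 with GBP6 (0.316), and ERAP1 and EFNA1 with GBP2 (0.359 and 0.496), so these likenesses depend on the centring.

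Reads of near-identical copies could be split between members. In GENCODE 29 transcripts, 17.6% of the 50-base windows of GBP2 occurred in another GBP gene, mostly GBP7 (15.8%), and 13.3% of those of GBP1, mostly in the pseudogene GBP1P1 (10.9%). The share was 3.44% for GBP3, 0.313% for GBP4 and 0 for GBP5 and GBP6. GBP1P1 had at most 179 counts, in RPE-1 WT cGAS replicate 1, where GBP1 had 3681.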

How the data were processed

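Polyadenylated RNA of 32 libraries was analysed, 2 per group. One deposited table holds estimated counts per gene, not normalised (96 to 97.3% of a library's values are whole; all 192 values of the 6 members are). The other holds FPKM, which the authors scaled by gene length and library size. Per the submitters' processing notes, the tools were STAR, Cuffnorm, DESeq2, FastQC and bcl2fastq, given without roles, and the build hg19. The annotation version and the strand of counting are not given in the sources used here. Starts in the table were taken to count from 0, and 1 was added, because gene lengths then equalled those of GENCODE 29 for 26266 of 56090 matched genes, against 327 otherwise.

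CPM are counts divided by the library's total over tested genes times its TMM factor, scaled to 1000000. Counts were rounded. Each experiment was fitted whole in edgeR 4.0.16 (R 4.3.3; filterByExpr, robust quasi-likelihood, legacy method off, group as the only term), which left 15190, 16632 and 15469 genes and 7, 6 and 3 residual degrees of freedom. P-values are two-sided, adjusted by Benjamini-Hochberg over all tested genes and called below 0.05. Standard errors come from fold changes and F statistics. Where a group had 0 counts a floor of 3 counts was used, and where it had 1 to 3 a ratio with an exact 95% counting interval. FPKM were also tested with limma 3.58.1 and counts with DESeq2 1.42.0. The fit was tested on simulated data. Replicate numbers were read as pairs only among the 4 WT groups of the first experiment, whose same-numbered libraries deviated together (correlations from 0.245 to 0.439).

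All members were named, with up to 3 called genes of a pathway list by size of change per comparison; for likeness, the 5 closest genes with a mean of at least 1 CPM. IRF1, the interferon ligands, the targeted genes, GBP7, GBP1P1 and single markers were named outside that rule, with their values known. The members and lists were chosen with earlier results of these data known. Some genes, 1 targeted gene among them, are not reported here.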

Additional observations from a re-analysis of the deposited data

Results flagged for a closer look

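Differences between effects passed a test of the difference itself. The effect of ATRi in irradiated MCF10A cells was larger in the XRCC4 p53 DKO than in XRCC4 KO for GBP1 by 2.85 on the log2 scale, for GBP2 by 1.78 and for GBP3 by 1.10. All 4 groups had 2 libraries each, and DKO with ATRi was above DKO in both libraries of each of these members. The effect of XRCC4 loss was less negative in p53 KO than in WT for GBP2 by 0.92, for GBP3 by 0.73 and for GBP5 by 3.15. On both FPKM scales the calls of GBP2 (limma adjusted p = 0.116 and 0.081) and GBP3 (0.0886 and 0.0876) ended. The GBP5 value depends on 1 count in XRCC4 KO, and on log2(FPKM + 1) it was -0.39.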

How the results depend on the processing

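Alternatives were DESeq2, RLE factors, edgeR's legacy quasi-likelihood (chosen after seeing the data), no filter on low counts, a replicate block, limma on log2(FPKM + 0.1) or log2(FPKM + 1), a fit of only the groups compared, and each library left out; a lone sample left in a group is assumed to vary like the others. Of 84 member calls 52 held under every alternative run, and 0 members passed for WT at 3 days against untreated under any of them. Where not stated, the cause of a change was not tested.

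For WT at 5 against 3 days (1 member called), DESeq2 called 4, legacy edgeR 0, the replicate block 3, log2(FPKM + 1) 2 and the groups compared alone 0. With only the groups compared, CDK1i against DMSO gave 0 of 5 and cGAS, STING and XRCC4 KO against WT gave 3 each. For cGAS KO and for STING KO no filter, log2(FPKM + 0.1) and log2(FPKM + 1) also gave 3. Against untreated, CDK1i (2) gave 1 without filter, 1 on log2(FPKM + 1) and 0 with the groups compared alone. Both cGAS KO and STING KO against untreated (1) gave 2 with DESeq2, legacy edgeR, the replicate block and log2(FPKM + 0.1), and with the groups compared alone 3 and 2. XRCC4 KO at 5 days against untreated (2) gave 1 without filter and on log2(FPKM + 1). On log2(FPKM + 1), DKO against XRCC4 KO gave 1 of 2 and RPE-1 p53 KO against WT 3 of 5. The ATRi interaction gave 5 on log2(FPKM + 0.1) against 3, and the XRCC4 interaction, with 3, gave 0 on log2(FPKM + 1) and on log2(FPKM + 0.1) 1, GBP4 in the opposite direction, while all 3 calls ended there.

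With a library left out, counts ran from 3 to 5 for WT at 5 days against untreated, 0 to 4 for 5 against 3 days, 3 to 6 for CDK1i, 1 to 5 for cGAS KO, 3 to 5 for STING KO and for XRCC4 KO against WT at 5 days, 1 to 2 for CDK1i against untreated, 1 for XRCC4 KO against untreated and 0 for ATRi in XRCC4 KO.

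Direction turned for 31 values, of which 1 was a call, GBP5 in the XRCC4 interaction (-0.39 on log2(FPKM + 1)). In that interaction GBP4 was -1.77 and GBP6 -0.20 on log2(FPKM + 0.1), and -0.41 and -0.34 on log2(FPKM + 1). CDK1i against untreated gave 0.011 (RLE) and 0.024 (no filter) for GBP1, and 0.028 and 0.026 on the FPKM scales for GBP3. Without filter GBP3 was -0.0072 in DKO against XRCC4 KO and GBP4 -0.012 in the ATRi interaction. With a library left out, ranges that crossed 0 were in WT at 3 days against untreated -0.76 to 2.02 for GBP4; in WT at 5 days against untreated -0.63 to 0.23 for GBP2; in CDK1i against untreated -0.84 to 0.51 for GBP1, -0.62 to 0.11 for GBP3, -1.97 to 0.093 for GBP4, -2.47 to 0.063 for GBP5; in STING KO against untreated -0.95 to 0.17 for GBP1; in ATRi in XRCC4 KO -0.26 to 0.11 for GBP2; in DKO against XRCC4 KO -0.011 to 0.37 for GBP2, -0.026 to 0.058 for GBP3; in the ATRi interaction -0.91 to 3.85 for GBP4, -0.86 to 2.45 for GBP5; in the XRCC4 interaction -0.35 to 0.054 for GBP1, -1.90 to 2.14 for GBP4.

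Same-numbered libraries deviated together (correlation over 0.1) in 6 of 6 pairs among the 4 WT groups of the first experiment (0.245 to 0.439), in 1 of its other 15 pairs (-0.265 to 0.116), in 0 of 15 in the second and in 0 of 3 in RPE-1. The numbers were therefore read as pairs among those WT groups only, and there the block changed no count but that of 5 against 3 days. The block was fitted over all groups of an experiment, however, so the knockout libraries were paired in it too. Beside the values of leave-outs, 45 called values moved by more than 1.5 times on the FPKM scales and stayed called, 43 of them to a smaller change. GBP3 in XRCC4 KO against WT at 5 days moved to larger falls, -1.82 on log2(FPKM + 0.1) and -1.72 on log2(FPKM + 1) beside -1.13. The part of the pseudocount in these moves was not tested. GBP4, GBP5 and GBP6 are limited by depth, with 0 counts in 4, 2 and 5 libraries.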
